A study of Xenopus laevis with 59 samples.

Results

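The collagen, laminin and basement membrane genes of *X. laevis* oocytes were followed through 4 size classes and along the animal-vegetal (A-V) axis. They were chosen by name: every transcript whose symbol, without the .L or .S ending, began with col, lama, lamb, lamc, nid, itga or itgb (all but itga followed by a digit) or was hspg2, sparc, lum, dcn or fn1. This took 138 of the 32291 transcripts in the count table, from 84 symbols. The allotetraploid frog carries 2 copies of many genes, named .L and .S after the long and short chromosomes, and here 80 transcripts were .L, 58 were .S and 54 genes had both copies. Reads shared between such near-identical copies may have been split or lost by the authors' counting, so the values of single copies are uncertain to that extent. By role the 138 transcripts were 8 collagen IV chains, 20 fibrillar collagens, 37 other collagens, 17 laminins, 8 other basement membrane genes (nidogens, perlecan and collagens XV and XVIII), 8 matricellular and proteoglycan genes, 24 integrin alpha and 11 integrin beta subunits. The remaining 5 fit the rule by their letters alone (col4a3bp, itgb1bp1, itgb1bp2 and itgb3bp), and they are counted but not read as matrix genes.

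Single oocytes were frozen, cut across the A-V axis, and the slices were spread over 5 tubes, from A at the extreme animal end through B, the central C and D to E at the extreme vegetal end, and each tube gave 1 RNA-seq library. The 12 oocytes were very small (n = 3, 560 to 580 µm, stage III, female 2), small (n = 5, 720 to 810 µm, stage IV), medium (n = 2, both 1050 µm, stage V) and big (n = 2, 1140 and 1200 µm, labelled stage VI), the last 3 classes all from female 1. No treatment or mutation was applied. Oocytes were separated by hand in a high-salt solution, and removal of the follicle layers is not described in the sources used here. Section A of very small oocyte 1 was not analysed here, so that its total sums 4 sections, which left 59 libraries with 1014060 to 7356435 counts (median 3617724). The small class differs from the very small class in size and in the female, so that size and female cannot be told apart in any comparison of these classes, and the oocytes of a class share their female, so p-values cover no spread between animals.

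Basement membranes are thin sheets in which a laminin polymer and a collagen IV network are joined by nidogen and perlecan, while fibrillar collagens such as types I, III and V form the fibres of the connective tissue beyond them. Cells hold on to both through integrins, receptors made of 1 alpha and 1 beta subunit. In a frog ovary the oocyte is wrapped in follicle (granulosa) cells, which rest on a basement membrane, and outside this lies a theca of fibroblasts, collagen fibres and blood vessels under a surface epithelium. The oocyte itself stores maternal RNA, and fibronectin and integrins made from such stores are known from the early *Xenopus* embryo.

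Small oocyte 2 and very small oocyte 3 stood apart from the rest of their classes in these genes, and the counts over all tested members, of totals and of sections, are therefore also given without them, and the counts by role or list where they moved by over 1.5 times. The 2 oocytes were picked by low values of these same transcripts. Leaving them out narrows the spread of such transcripts, so smaller p-values and more calls without them are no separate support. Their libraries held 2441510 to 3467541 and 1385974 to 5324254 counts, depths also met in the other oocytes. A scaled total is the summed count of an oocyte over its sections, scaled with TMM (trimmed mean of M-values). All libraries started from the same mass of total RNA. A scaled total is therefore relative to the other RNA sequenced, with deeper sections weighing more, and is not an amount of RNA per oocyte. Words such as higher, lower, rose and even are meant in this relative sense. In small oocyte 2, 16 of the 68 transcripts that reached 20 scaled counts in each of the other 4 small oocytes lay under 10% of the lowest of these, compared with 36 of 18186 (0.198%) among all transcripts. In very small oocyte 3 it was 12 of 64, compared with 48 of 18571 (0.258%). The 16 transcripts were col1a1.L and .S, col1a2.L and .S, col3a1.L, col5a1-like.S, col11a1-like.L, the collagen IV chains col4a1.L, col4a5.L and col4a6-like.L, the collagen VI chains col6a1.L and .S and col6a2.S, col12a1.S, lama2.L and lamb1.L. Their summed scaled total was 6493, 16.6, 6183, 5033 and 2094 in small oocytes 1 to 5 and 885, 1650 and 48.6 in very small oocytes 1 to 3. It was 7134 and 9753 in the medium and 9078 and 8083 in the big oocytes. The other 48 matrix transcripts that could be measured in this way summed to 52488 to 59361 in all 12 oocytes. Abundant transcripts such as fn1.S lead this sum, and it does not show that each of the 48 was unaffected. In small oocyte 2, 15 of the 48 lay under 50% of the median of the other small oocytes, the lowest at 3.1%. Medium oocyte 1 was uneven in another way, as its section E, the shallowest library, held the highest levels of most collagens and its section A low ones.

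Of the 138 transcripts, 65 reached a mean scaled total above 20 in the very small class, 80 in the small, 80 in the medium and 82 in the big class. This filter, in at least 1 class, left 89 transcripts for the tests, among 19941 of all transcripts, and the 49 others were too low to test. The best covered roles were the laminins (13 of 17 tested), the fibrillar collagens (17 of 20), the other basement membrane genes (7 of 8), the matricellular and proteoglycan genes (7 of 8) and the integrin beta subunits (9 of 11). Only 4 of the 8 collagen IV chains, 18 of the 37 other collagens and 10 of the 24 integrin alpha subunits were tested. A transcript that passed only through the class where it is high had to differ between classes, so the tested set is not all of the family. Among those named below, lamb3.S, col26a1.L, col4a1.L, col4a2.L and col6a1.L had means of 8.10, 2.36, 10.65, 17.15 and 18.89 in very small oocytes. In the other direction itga4.L, itga6.S and itga9.L had 1.12, 7.15 and 14.95 in small oocytes. Their p-values between these 2 classes, and the counts that include them, carry this limit. A level of RNA in these oocytes cannot separate fewer cells of a kind from less RNA per cell.

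The question of the first comparison was how the totals per oocyte differed between very small and small oocytes. Collagens of the fibres and of the collagen VI network, nidogens, perlecan and sparc were higher in the small oocytes, whereas most integrins that changed were lower. Of the 89 transcripts tested, 43 were higher and 17 lower in small oocytes at an FDR under 0.1 (Benjamini-Hochberg over all transcripts, edgeR), beside 22% higher and 22.4% lower among all transcripts. The median log2 difference was 1.01, and that of all transcripts was 0.01. Without small oocyte 2 and very small oocyte 3 the counts were 44 and 17 and the median 0.78. By role, 12 of 17 fibrillar collagens, 10 of 18 other collagens, 2 of 4 collagen IV chains, 5 of 7 other basement membrane genes and 6 of 7 matricellular and proteoglycan genes were higher. Of the integrins, 5 of 10 alpha and 5 of 9 beta subunits were lower, and 2 and 1 were higher. The laminins were split, with 5 of 13 higher and 2 lower.

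Among the collagen IV chains, which form the network of the basement membrane, col4a1.L had scaled totals of 11.9, 20.02 and 0 in the very small oocytes and of 248, 5.54, 201, 186 and 82.7 in the small ones. It had 291 and 309 in the medium and 332 and 279.6 in the big oocytes. Each of small oocytes 1, 3, 4 and 5 was above every very small oocyte, and small oocyte 2 was not. The log2 difference between small and very small was 3.61 ± 0.83 (SE, adjusted p = 0.00358, edgeR), and col4a2.L, its usual partner chain, differed by 2.48 ± 0.70 (adjusted p = 0.0129, edgeR). The other pair of chains, col4a5.L and col4a6-like.L, did not pass this test. For col4a5.L the scaled totals were 118, 206 and 2.78 in the very small and 408, 2.77, 398, 193 and 149 in the small oocytes, so the classes overlapped.

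Collagen I, the main fibre collagen of connective tissue, is built from chains of col1a1 and col1a2. The col1a1.L totals were 171, 277 and 5.55 in the very small and 1176, 0, 1171, 947 and 412 in the small oocytes. They were 1502 and 2019 in the medium and 1799 and 1522 in the big oocytes. Small oocyte 2 had no count at all, and very small oocyte 3 was also near 0, in contrast to at least 171 in the others. The difference between small and very small was 2.20 ± 0.80 (log2 ± SE, adjusted p = 0.0463, edgeR) and 2.01 ± 0.38 without these oocytes (adjusted p = 0.00165, edgeR). As these oocytes were picked by low values of such transcripts, the smaller SE and p follow in part from that choice. The partner chain col1a2.L had the same shape, with 172, 304 and 5.55 in the very small and 1188, 1.38, 1162, 987 and 376 in the small oocytes. The same held for col3a1.L, a collagen of thin fibres, with 25.1, 83.5 and 4.17 and 351, 4.15, 240.4, 273 and 97.9 (log2 difference 2.23 ± 0.78, adjusted p = 0.038, edgeR). Not all fibrillar collagens behaved in this way. The totals of col24a1.L were 1081, 1156 and 1176 in the very small and 1065, 1153, 1207, 1067 and 1306 in the small oocytes, with no low value in either outlying oocyte.

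**Figure D1:**
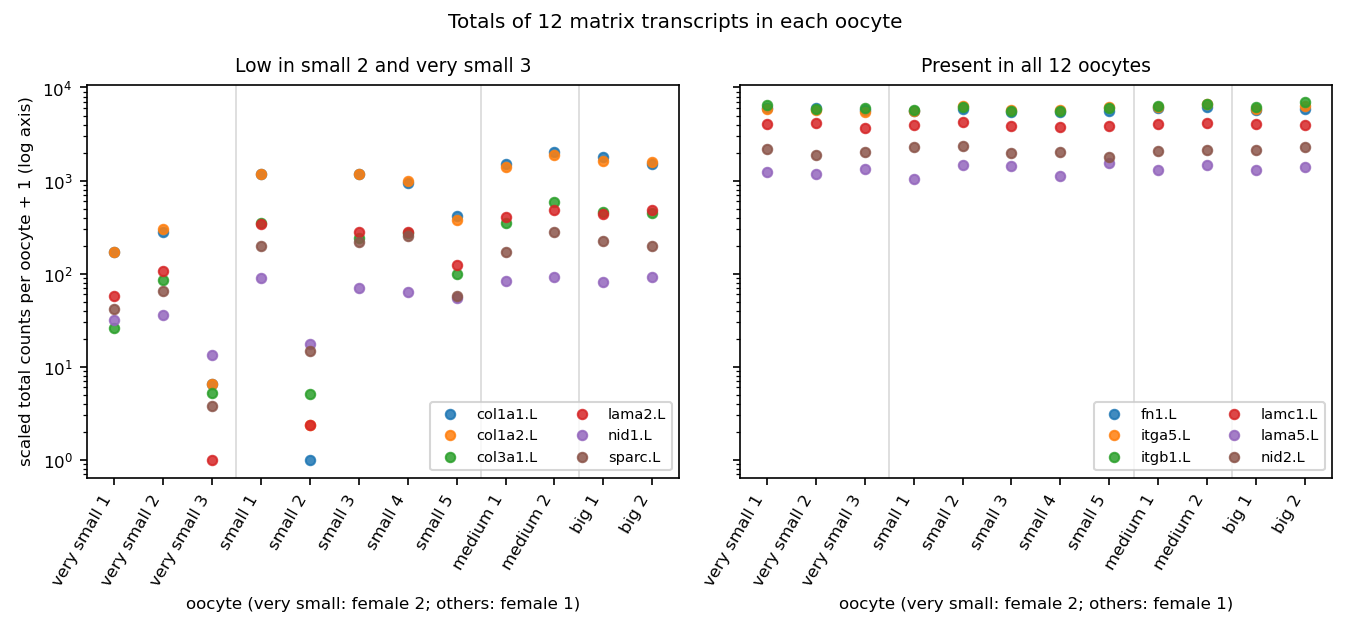
Scaled total counts per oocyte plus 1 on a log axis for 6 matrix transcripts that were low in small oocyte 2 and very small oocyte 3 (left) and 6 that were present in all 12 oocytes (right). Each point is 1 oocyte and grey lines part the size classes; col1a1.L was 0 in small oocyte 2 and 412 to 1176 in the other small oocytes, while fn1.L stayed between 5438 and 6190 in all 12.

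Collagen VI, a network of beaded filaments around cells, was among the larger differences. The col6a1.L totals were 20.3, 32.2 and 4.17 in the very small and 176, 0, 225, 179 and 64.6 in the small oocytes (log2 difference 2.67 ± 0.81, adjusted p = 0.0193, edgeR). Leaving out small oocyte 2, every small oocyte exceeded every very small one. Another collagen, col26a1.L, had 3.58, 3.48 and 0 in the very small and 55.4, 52.6, 71.3, 59.3 and 60.8 in the small oocytes, with small oocyte 2 level with the rest of its class (log2 difference 4.47 ± 0.37, adjusted p = 4.91e-07, edgeR). In the other direction, 4 of the 18 other collagens were lower in small oocytes, among them col9a1.S, a fibre-associated collagen known from cartilage (-1.06 ± 0.19, adjusted p = 0.000514, edgeR).

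Laminins are trimers of 1 alpha, 1 beta and 1 gamma chain, and the gamma 1 chain, which most of them share, did not pass the test. The totals of lamc1.L were 4026, 4156 and 3702 in the very small, 3953, 4206, 3868, 3735 and 3844 in the small, 4096 and 4169 in the medium and 4017 and 4001 in the big oocytes. All 12 oocytes thus lay within 3702 to 4206 (log2 difference small against very small -0.03 ± 0.05, adjusted p = 0.71, edgeR). The alpha 2 chain lama2.L, known from muscle and nerve basement membranes, had 56.2, 105 and 0 in the very small and 337, 1.38, 281, 280.2 and 123 in the small oocytes. The alpha 1 chain lama1.L, a chain of early embryonic basement membranes, had 37.0, 49.6 and 5.55 and 187, 73.3, 173, 165 and 72.2. In small oocyte 2 lama2.L was near 0 whereas lama1.L was level with small oocyte 5. The differences were 1.82 ± 0.76 (adjusted p = 0.0767) for lama2.L and 2.04 ± 0.45 (adjusted p = 0.00267) for lama1.L in edgeR. The beta 3 chain lamb3.S, known from epithelial basement membranes, went a different way. Its totals were 2.39, 12.2 and 9.72 in the very small and 96.3, 115, 86.3, 106 and 109 in the small oocytes. The classes did not overlap and no small oocyte was low (log2 difference 3.58 ± 0.28, adjusted p = 2.94e-07, edgeR).

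Nidogen and perlecan link the laminin and collagen IV layers. The totals of nid1.S were 100.4, 131 and 62.5 in the very small and 366, 125, 349, 337 and 220.5 in the small oocytes (log2 difference 1.48 ± 0.30, adjusted p = 0.00164, edgeR). Those of hspg2.L, which encodes perlecan, were 93.2, 117 and 69.4 and 235, 120.4, 243, 212 and 146 (1.01 ± 0.23, adjusted p = 0.00393, edgeR). Both were lowest in small oocyte 2 and very small oocyte 3 within their classes, but were not near 0 there as col1a1.L and col4a1.L were. The second nidogen went a different way, with nid2.S at 158, 111 and 108 in the very small and 514, 587, 459, 499.7 and 479 in the small oocytes, highest in small oocyte 2 (2.00 ± 0.16, adjusted p = 2.8e-07, edgeR). Its homeolog nid2.L, like col18a1.L, the collagen XVIII of basement membranes and source of endostatin, did not pass.

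Sparc is a collagen-binding protein that takes part in the assembly of basement membranes. The sparc.L totals were 40.6, 64.4 and 2.78 in the very small and 199, 13.8, 216, 252 and 56.1 in the small oocytes, again low in both outlying oocytes (1.95 ± 0.72, adjusted p = 0.0473, edgeR). Fibronectin, which binds integrins and collagens, was in contrast abundant in both copies, and fn1.L was the more even copy. The fn1.L totals were 6045, 5953 and 5714 in the very small, 5590, 5906, 5518, 5438 and 5591 in the small, 6076 and 6190 in the medium and 5776 and 5870 in the big oocytes, that is 5438 to 6190 in all 12. With so narrow a spread a log2 difference of -0.08 ± 0.04 between small and very small passed the FDR of 0.1 (adjusted p = 0.098, edgeR). The copy fn1.S lay at 7761 to 9773, highest in small oocyte 2, and was called higher in small oocytes, with a log2 difference of 0.15.

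The fibronectin receptor of integrin alpha 5 and beta 1 was nearly as even as its ligand, apart from small rises of fn1.L and itgb1 in medium and big oocytes given below. The itga5.L totals were 5477 to 6651 and those of itgb1.L 5583 to 6918 over the 12 oocytes, and neither passed between small and very small. Other integrin subunits had the largest differences of the whole set. The totals of itga4.L, the alpha chain of the fibronectin and VCAM receptor of leukocytes, were 2382, 2359 and 2477 in the very small and 2.56, 1.38, 0, 0.706 and 0.950 in the small oocytes. In the medium and big oocytes it was at 2.29 and 5.08 and at 8.97 and 0, so that nearly all its counts came from female 2. The alpha 9 subunit itga9.L, a receptor for tenascin and other ligands, had 562, 548 and 499.9 in the very small and 14.5, 5.54, 18.4, 26.8 and 9.50 in the small oocytes (-5.08 ± 0.24, adjusted p = 1.94e-09, edgeR). The beta 8 subunit itgb8.L, a receptor chain that activates TGF-beta, had 1155, 969 and 1079 and 69.9, 22.1, 86.3, 81.2 and 46.6 (-4.08 ± 0.21, adjusted p = 4.12e-09, edgeR). The laminin receptor chain itga6.L was one of 2 alpha subunits that were higher in small oocytes, with 32.3, 40.9 and 9.72 in the very small and 118, 37.4, 121, 84.0 and 54.2 in the small oocytes (1.52 ± 0.41, adjusted p = 0.00961, edgeR).

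The second comparison asked how the totals of medium and big oocytes differed from those of small oocytes, all of female 1. Of the 89 transcripts, 10 were higher and 1 was lower, beside 5.81% higher and 9.79% lower among all transcripts, and the median log2 difference was 0.34. The count of higher transcripts depended on single oocytes. It was 4 without big oocyte 1, 1 without medium oocyte 2, and 6 when any 1 of big oocyte 2, medium oocyte 1, small oocyte 5, very small oocyte 1 or very small oocyte 2 was left out. Without small oocyte 2 and very small oocyte 3 together it was 21, with 2 lower. The lower transcript, col9a2.S, a collagen IX chain named after its values were seen, was lost without big oocyte 2, without medium oocyte 2 and without small oocyte 3. Integrin beta 8 was the clearest of the 10, as itgb8.L had 69.9, 22.1, 86.3, 81.2 and 46.6 in the small oocytes, 160.0 and 152 in the medium and 206 and 160.0 in the big ones, with no overlap (1.42 ± 0.22, adjusted p = 0.00201, edgeR). The alpha 6 chain itga6.L rose from 118, 37.4, 121, 84.0 and 54.2 in the small to 144 and 154 in the medium and 216 and 183 in the big oocytes (1.05 ± 0.30, adjusted p = 0.0461, edgeR). For the fibre collagen chain col5a2.S the totals were 137, 18.0, 112, 88.9 and 31.4 in the small, 175 and 236 in the medium and 247 and 182 in the big oocytes (1.41 ± 0.41, adjusted p = 0.0479, edgeR). Collagen I did not pass with all oocytes, where col1a1.L differed by 1.18 ± 0.57 (adjusted p = 0.217), and passed without the outlying pair, where it differed by 0.89 ± 0.25 (adjusted p = 0.043, edgeR). That pair was picked by low values of such transcripts, so the smaller p without it is no separate support. Fibrillar collagens made up 2 of the 10 higher transcripts with all oocytes and 8 of the 21 without that pair. Also among the 10 were small rises of abundant transcripts. Their log2 differences were 0.1 for fn1.L, 0.17 for itgb1.L and 0.13 for itgb1.S.

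The third question was where along the A-V axis these transcripts lay. In small, medium and big oocytes the matrix transcripts that differed between sections were higher at the ends than at the centre, with 1 exception. The tubes of an oocyte held equal numbers of slices. In a sphere cut into 5 slices of equal thickness, A and E have 2.85 times the surface per volume of C (log2 1.51). Higher levels at both ends therefore do not separate RNA at the poles from RNA over the whole surface, which was not tested. In small oocytes 27 of the 89 were higher in A than in C and 14 higher in E than in C, beside 2.95% and 3.89% of all transcripts. In medium oocytes the counts were 2 and 35, beside 1.96% and 5.41%, and in big oocytes 29 and 29, beside 3.07% and 6.56%. DESeq2 called far fewer in A of small oocytes and fewer in A of medium oocytes, as given under the processing. The single transcript lower at an end was col4a3bp.S in section E of medium oocytes, which fits the rule by its letters alone. In very small oocytes none passed in A or in E, beside 0% and 1.43% of all transcripts, while 7 and 10 had an unadjusted p under 0.05 and DESeq2 called 0 and 1. The medians of the log2 differences A minus C and E minus C were 0.17 and 0.19 in very small oocytes, 0.57 and 0.33 in the small class, 0.41 and 0.70 in the medium class and 0.70 and 0.60 in the big class, and near 0 over all transcripts. Without small oocyte 2 and very small oocyte 3 the counts in A and E were 21 and 11 (small oocytes), 2 and 33 (medium) and 26 and 28 (big).

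These counts rest on few oocytes. Without big oocyte 2 the counts in big oocytes fell to 0 in A and 5 in E, and without medium oocyte 1 the count in E of medium oocytes was 14. In A of medium oocytes the count was 6 without medium oocyte 1 and 0 without medium oocyte 2. Without small oocyte 4 it was 5 in A of small oocytes, without small oocyte 5 it was 17 in A and 4 in E, and without small oocyte 3 it was 5 in E. In very small oocytes 1 transcript passed in E when either medium oocyte was left out.

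The roles differed in how many of their members lay at the ends. In big oocytes all 4 tested collagen IV chains were higher in A than in C and 3 in E, with median log2 differences of 2.08 and 2.18. Of the 17 fibrillar collagens 9 were higher in A and 11 in E (1.51 and 1.67), and of the 7 matricellular and proteoglycan genes 3 in each (1.42 and 1.67). The other collagens had 5 of 18 in each, the laminins 3 of 13 in each, and the other basement membrane genes 1 and 2 of 7. Among the integrins 2 and 1 of 10 alpha and 1 and 1 of 9 beta subunits passed. The 9 integrin beta subunits had medians of -0.05 and -0.05, close to the median of all transcripts. In small oocytes the collagen IV chains had 4 of 4 in A and 0 in E (1 at an unadjusted p under 0.05 in edgeR), the fibrillar collagens 7 and 4 of 17, and the matricellular and proteoglycan genes 4 and 0 of 7 (5 in E at an unadjusted p under 0.05). Without small oocyte 2 and very small oocyte 3 the matricellular and proteoglycan count in A of small oocytes was 2. In medium oocytes most calls were in E instead, with 0 and 4 collagen IV chains (1 in A at an unadjusted p under 0.05) and 1 and 13 fibrillar collagens in A and E.

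**Figure D2:**
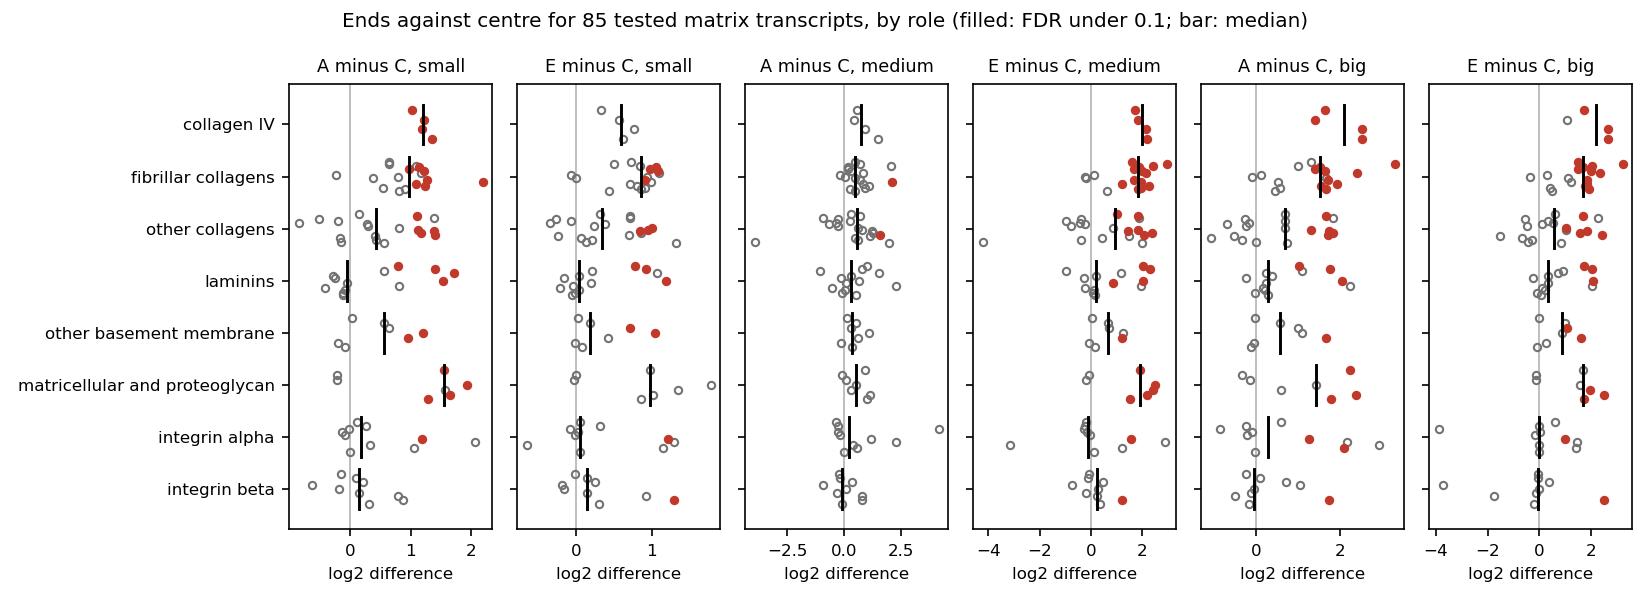
Log2 difference of section A or E from section C (x axis) for the tested matrix transcripts, by role (rows), in small, medium and big oocytes (panels). Each circle is 1 transcript, filled where it passed an FDR of 0.1, and the black bar is the median of the role; in big oocytes the collagen IV medians were 2.08 in A and 2.18 in E, and those of the integrin beta subunits were close to 0.

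Levels in sections are given in CPM (counts scaled to library size with TMM factors), in the order A, C and E. For col4a1.L they were 21.3, 8.40 and 19.8 in big oocyte 1 and 27.5, 7.33 and 30.1 in big oocyte 2, with both ends above the centre in both oocytes. The log2 differences were 1.64 ± 0.34 for A (adjusted p = 0.00286) and 1.74 ± 0.36 for E (adjusted p = 0.000544, edgeR). For col4a5.L they were 49.2, 10.2 and 45.0 in big oocyte 1 and 38.4, 5.86 and 49.6 in big oocyte 2, larger differences of 2.51 ± 0.53 and 2.66 ± 0.54 (adjusted p = 0.00248 and 0.000344, edgeR). The 8 collagen IV transcripts together had 103 to 112 CPM in A, 28.8 to 75.8 in B, 21.4 to 30.3 in C, 32.8 to 46.5 in D and 108 to 112 in E over the big oocytes. Sections B and D were thus below the outermost sections in both oocytes.

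For the collagen I chain col1a1.L the levels in A, C and E were 136, 48.6 and 124 CPM in big oocyte 1 and 112, 40.0 and 148 in big oocyte 2. The differences were 1.51 ± 0.36 for A (adjusted p = 0.0123) and 1.67 ± 0.37 for E (adjusted p = 0.0015, edgeR). In the medium oocytes they were 40.8, 66.4 and 344 in oocyte 1 and 124, 71.5 and 171 in oocyte 2, so the first had its section A below its centre while both had E as the highest section (1.86 ± 0.37 for E, adjusted p = 0.000287, edgeR). In small oocytes 1, 3, 4 and 5 they were 66.9, 43.8 and 77.9, then 80.9, 42.8 and 105, then 89.7, 31.1 and 41.4, then 28.7, 10.8 and 35.6 CPM. Every one of these 4 oocytes had both ends above its centre, and small oocyte 2 had no count in the 3 sections (1.14 ± 0.28 for A, adjusted p = 0.0244, and 1.06 ± 0.27 for E, adjusted p = 0.0111, edgeR). In very small oocyte 2 the levels were 16.4, 7.25 and 24.9 CPM, and in very small oocyte 1 they were 7.04 in C and 15.6 in E. Very small oocyte 3 had less than 1 CPM in each of them. Both ends were thus above the centre in very small oocyte 2, and E was above C in very small oocyte 1, whose section A was not analysed, without a call.

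**Figure D3:**
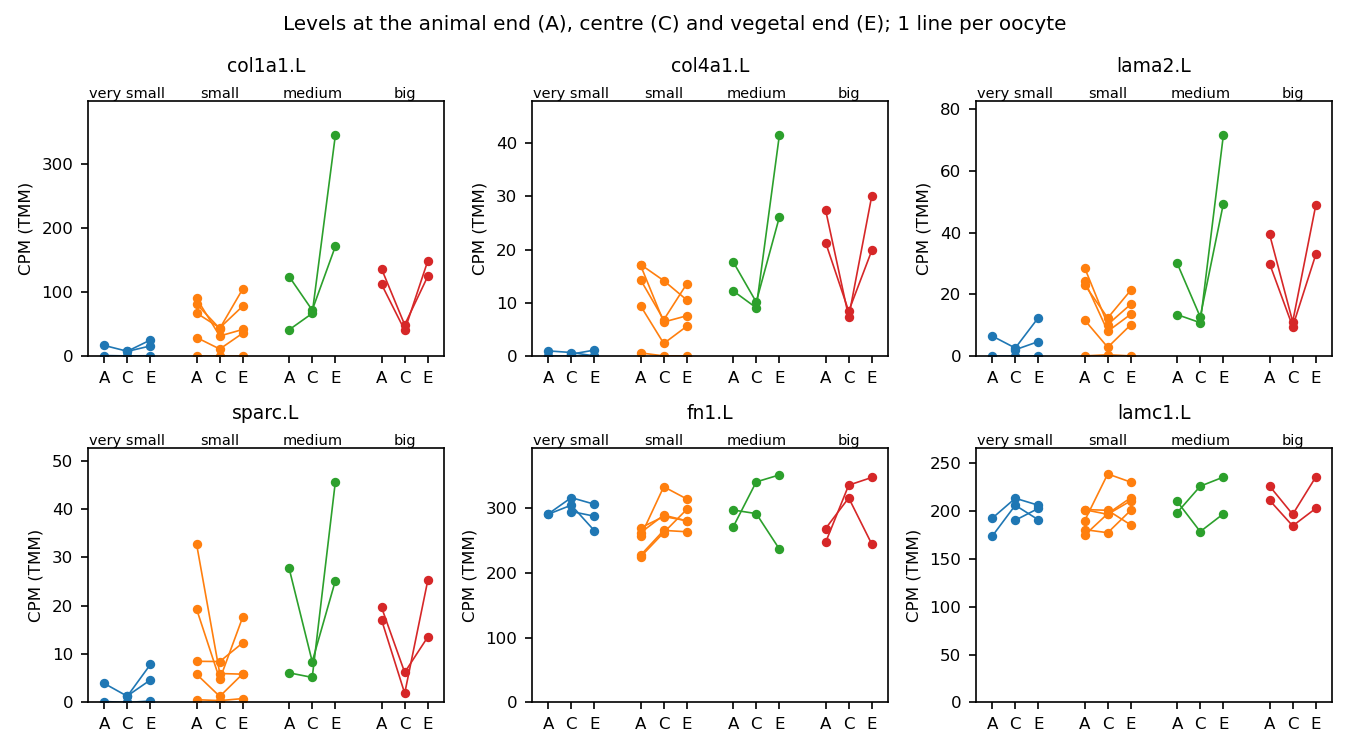
CPM in sections A, C and E for 6 transcripts, 1 line per oocyte and 1 colour per size class, each panel with its own y axis from 0. The lines of col1a1.L, col4a1.L, lama2.L and sparc.L dip at the centre in both big oocytes, while fn1.L stays at 224 to 351 CPM and lamc1.L at 174 to 239 CPM in every section shown.

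Among the laminins lama1.L, lama2.L and the beta 1 copy lamb1.L were called higher at both ends of big oocytes. The other beta 1 copy, lamb1.S, and the gamma 1 chain were not. For lama2.L the levels in A, C and E were 29.9, 9.50 and 32.9 CPM in big oocyte 1 and 39.5, 11.1 and 48.9 in big oocyte 2. Both ends were above the centre in both oocytes, and the log2 differences were 1.76 ± 0.32 for A (adjusted p = 0.00043) and 2.01 ± 0.32 for E (adjusted p = 8.57e-06, edgeR). The medium oocytes had 13.4, 10.8 and 71.6 and 30.1, 12.7 and 49.4 CPM. For lamb1.L the big oocytes had 18.3, 7.31 and 18.9 and 29.6, 4.81 and 28.2 CPM (2.05 ± 0.40 for A, adjusted p = 0.00111, and 2.06 ± 0.41 for E, adjusted p = 0.000369, edgeR). The gamma 1 chain lamc1.L had 211, 185 and 203 in big oocyte 1 and 226, 197 and 236 in big oocyte 2. Its differences of 0.22 ± 0.11 and 0.22 ± 0.11 did not pass (adjusted p = 0.383 and 0.328, edgeR). The alpha 5 chain, in both copies, and lamb3.S did not pass in A or E of big oocytes either.

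The linkers followed in part. For nid1.S the levels in A, C and E were 30.7, 11.0 and 23.7 CPM in big oocyte 1 and 33.1, 9.84 and 36.3 in big oocyte 2 (1.66 ± 0.31, adjusted p = 0.000757, and 1.59 ± 0.33, adjusted p = 0.000517, edgeR). For hspg2.L they were 17.6, 11.0 and 24.2 and 23.5, 9.63 and 18.8, and only the difference of E passed (1.06 ± 0.35, adjusted p = 0.0532, edgeR). Both copies of nid2 and of col18a1 were not called in either end. For sparc.L the big oocytes had 19.6, 6.21 and 13.6 and 17.1, 1.88 and 25.3 CPM, with both ends above the centre in both (2.37 ± 0.60 for A, adjusted p = 0.0186, and an adjusted p of 0.00542 for E, edgeR). Fibronectin showed no such rise, with fn1.L at 268, 315 and 244 CPM in big oocyte 1 and 247, 335 and 347 in big oocyte 2.

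Most integrins were as even along the axis as fibronectin, and 3 subunits had a call at an end of the big oocytes, itga6.L in A and E, itga9.L in A and itgb8.L in A and E. For itgb8.L the levels in A, C and E were 12.4, 7.67 and 23.2 CPM in big oocyte 1 and 13.6, 1.47 and 20.1 in big oocyte 2 (1.72 ± 0.39, adjusted p = 0.00628, and 2.49 ± 0.39, adjusted p = 2.69e-06, edgeR). In the very small oocytes, where its total was highest, its levels were 56.6, 46.3 and 43.2 in oocyte 2 and 55.4, 50.3 and 56.9 in oocyte 3, so that ends and centre lay between 43.2 and 56.9 CPM. For itga6.L the big oocytes had 13.8, 7.31 and 16.0 and 18.9, 6.49 and 11.3 CPM (1.25 ± 0.29, adjusted p = 0.00746, and 0.98 ± 0.31, adjusted p = 0.0478, edgeR). The fibronectin receptor subunits stayed level, with itga5.L at 297, 294 and 294 and itgb1.L at 309, 316 and 345 CPM in big oocyte 1.

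Whether the excess at the ends changed with size was tested directly on the mean of A and E minus C, called the pole excess. In medium and big oocytes together against small oocytes it rose in 0 and fell in 0 of the 89 transcripts, beside 0.732% and 0.0802% of all transcripts, with 12 at an unadjusted p under 0.05 and 0 in DESeq2. The median change was 0.20. Between small and very small oocytes 0 rose, beside 0% of all transcripts, with 3 at an unadjusted p under 0.05, 0 in DESeq2 and a median change of -0.03. The different numbers of calls in the 4 classes therefore do not show that the profile itself differed between them.

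The transcripts under 10% in small oocyte 2 were compared with the section profile of the big oocytes, which played no part in picking them. In big oocytes 31 of the 89 transcripts had a pole excess that passed, beside 4.34% of all transcripts. All 16 transcripts under 10% in small oocyte 2 were among them, in contrast to 13 of the other 52 that could be measured. Among all transcripts it was 29 of 36 and 746 of 18150. Refitted without small oocyte 2 and very small oocyte 3 the pole excess passed in 30 of the 89 transcripts, and in 16 of the 16 and 12 of the 52. Without big oocyte 1 it was 29, with 16 and 12, whereas without big oocyte 2 it was 4, with 3 and 1. Very small oocyte 3, of another female, was low in many of the same transcripts: of the 16, 12 could be measured in its class and 9 of these were under 10% there, compared with 2 of the other 42. Among all transcripts the counts were 13 of 20 and 27 of 17650. The summed CPM of the 16 in A, C and E were 659, 243 and 636 in big oocyte 1, 660, 185 and 819 in big oocyte 2, and 1.41, 0.75 and 0 in small oocyte 2. Those of the 48 other matrix transcripts, led by the abundant ones, were 2444 to 3208 in every A, C and E library. Of the 29 measured transcripts with a called pole excess 16 were thus under 10% in small oocyte 2, with all oocytes in the fit. Some of the other 13 were nearly as low there, so this limit does not part the transcripts cleanly. In small oocyte 2 col4a2.L had a scaled total of 12.5 and sparc.L of 13.8, compared with medians of 132 and 208 in the other small oocytes. A called excess did not always go with so low a level, as nid1.S, hspg2.L and lama1.L were lower but present in small oocyte 2. The excess of nid1.S was as large as that of col1a1.L (1.62 and 1.59).

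**Figure D4:**
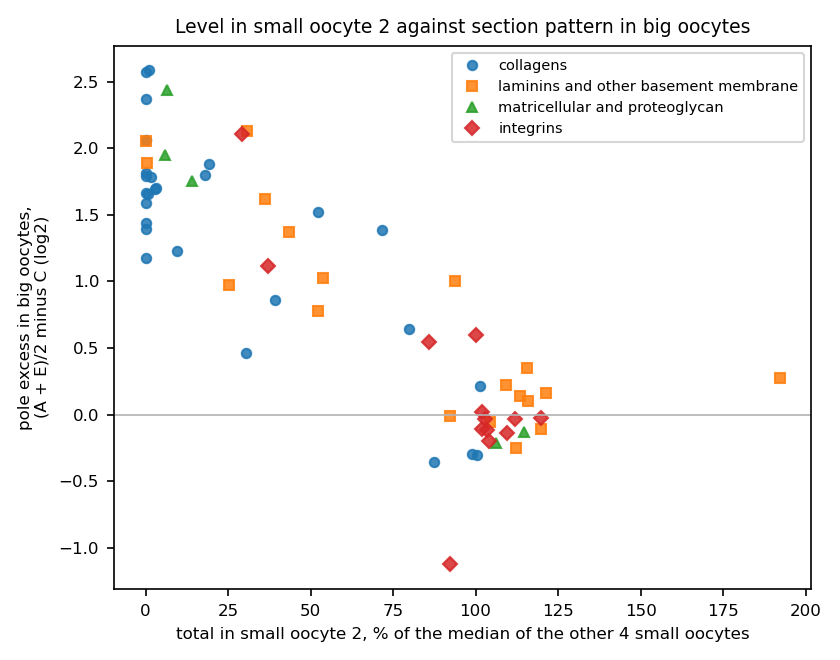
Pole excess in big oocytes (y axis, mean of A and E minus C, log2) against the total in small oocyte 2 as a percentage of the median of the other 4 small oocytes (x axis) for the matrix transcripts that could be measured. Each symbol is 1 transcript, shaped by role; the transcripts near 0% lie above 1 on the y axis, and those near 100% lie mostly around 0.

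The markers of the cells around an oocyte were read in the same libraries. Of 21 tested transcripts of granulosa and follicle cells 6 were higher in A and 7 in E of big oocytes, of 14 of smooth muscle 9 and 6, of 24 of stroma and theca 6 and 6, and of 13 of blood and endothelium 3 and 3. Of 28 oocyte transcripts 0 were higher in A (2 with an unadjusted p under 0.05 in either direction) and 10 in E. Among all transcripts 3.07% were higher in A and 6.56% in E. The oocyte list includes nanos1, dazl and ddx25, RNAs that the paper describes as carried to the vegetal pole. Its calls in E therefore do not stand for oocyte RNA in general. Summed over all its transcripts, the granulosa list had 753 to 764 CPM in A, 652 to 697 in C and 694 to 815 in E of the big oocytes. The smooth muscle list had 821 to 905, 513 to 516 and 459.9 to 546, and the stroma and theca list 696 to 753, 583 to 588 and 794 to 925. The blood and endothelium list had 162 to 199, 103 to 114 and 162 to 174 CPM. The sums of all 4 lists hold transcripts that oocytes also carry, and no list differed between ends and centre in sum by as large a ratio as collagen IV. Per transcript this was otherwise, in the fit without small oocyte 2 and very small oocyte 3. Median log2 differences in A and E of big oocytes were 2.08 and 1.75 for smooth muscle. They were 1.39 and 1.37 for granulosa, 0.44 and 0.51 for stroma and theca and 0.59 and 0.39 for blood and endothelium. Collagen IV had 2.07 and 2.19 in that fit. Of the defining markers, kitlg and amhr2 (granulosa), twist1.S (stroma), lmod1.L and mylk.L (smooth muscle) and gata1 (blood) were among those under 5 scaled counts in all 12 oocytes.

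In small oocyte 2 these markers were unequally affected. As a percentage of the class median, the measurable transcripts had a median of 102% for blood and endothelium (1 of 7 under 50%), 90.5% for smooth muscle (3 of 8), 82.1% for stroma and theca (8 of 20) and 39.7% for granulosa and follicle cells (7 of 12). These medians leave out markers under 20 scaled counts in any other small oocyte. Of all 31 blood and endothelium transcripts 19 had counts in small oocyte 2, compared with 27 to 29 in the other small oocytes. For smooth muscle it was 14 of 19 (17 to 18), for stroma and theca 26 of 33 (30 to 32) and for granulosa 30 of 39 (35 to 39). The transcripts named next were chosen after their values were seen. Those of blood, smooth muscle and stroma are among the lowest of their lists in small oocyte 2. Those of granulosa are not the lowest of theirs, where the lowest measurable transcript was at 16.4%, so the named transcripts do not compare the lists. The haemoglobin transcript hba1.L had 130.4, 0, 108, 91.0 and 19.0 scaled counts in small oocytes 1 to 5, and the smooth muscle myosin myh11.L had 130.4, 5.53, 114, 48.0 and 27.6. Fibrillin, the microfibril protein of connective tissue, was near 0 in small oocyte 2 as collagen I was, with fbn1.L at 104, 1.38, 70.2, 91.0 and 22.8. The granulosa hormone subunit inha.L had 244, 92.7, 245, 261 and 130.2 and the aromatase cyp19a1.L 351, 78.9, 213, 222 and 73.2, so that both were reduced but clearly present in small oocyte 2, within or near the range of small oocyte 5. In very small oocyte 3 inha.L was at 0, compared with 49.0 and 52.2 in the other very small oocytes, while the granulosa list had a median of 96.6% there (3 of 8 under 50%). The oocyte list had a median of 92.9% of the class median in small oocyte 2 and of 100.5% in very small oocyte 3. The part of these cells in the levels of the matrix transcripts was not tested.

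Genes that make and receive the matrix did not all follow it. Of 35 tested transcripts for collagen and matrix assembly 2 were higher in A and 4 in E of big oocytes, and of 55 matrix receptors and adhesion proteins 3 in each, beside 3.07% and 6.56% of all transcripts. Protein disulfide isomerase, a subunit of the collagen prolyl hydroxylase, was even, with p4hb.L at 6750 to 8027 scaled counts over the 12 oocytes. The collagen chaperone serpinh1.L varied more, at 498 to 799.8, but was present in all 12. The cross-linking enzyme loxl1.L was one of the few called at both ends of big oocytes. Its log2 differences there were 1.92 ± 0.44 in A (adjusted p = 0.00755) and 1.76 ± 0.48 in E (adjusted p = 0.0123, edgeR). It had 63.0, 26.3, 67.9, 71.3 and 19.96 scaled counts in small oocytes 1 to 5, and was thus not near 0 in small oocyte 2. Of 40 other matrix proteins, such as biglycan, fibrillins and matrilins, 11 were higher in each end, and of 21 remodelling enzymes 3 in each. Between small and very small oocytes the totals of the assembly list were higher in 14 and lower in 8, those of the receptors in 15 and 9, those of the other matrix proteins in 17 and 9 and those of the remodelling enzymes in 3 and 5. Of all transcripts 22% were higher and 22.4% lower.

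The .L and .S copies of a gene did not always move together. Of 28 pairs with both copies tested, 11 had the same call between small and very small oocytes, 6 had opposite calls, 6 had 1 copy called and 5 neither. The share over all homeolog pairs was not counted, so these counts are not read as particular to matrix genes. Of all transcripts, 22% were called higher and 22.4% lower. The opposite pairs include fn1, with log2 differences of only -0.08 (.L) and 0.15 (.S). Without small oocyte 2 and very small oocyte 3 these were 12, 5, 6 and 5. The beta 1 laminin chain was one of the opposite pairs. The totals of lamb1.S were 599, 778 and 742 in the very small and 128, 269.8, 153, 199.8 and 105 in the small oocytes, where small oocyte 2 was the highest (-2.07 ± 0.22, adjusted p = 5.65e-06, edgeR). Those of lamb1.L were 29.9, 59.2 and 2.78 and 191, 0, 176, 164 and 55.1, where small oocyte 2 had none and very small oocyte 3 nearly none (1.84 ± 0.77, adjusted p = 0.0796, edgeR). Along the axis of big oocytes lamb1.L was higher at both ends and lamb1.S, at 4.87, 4.02 and 4.36 and 8.80, 7.54 and 9.72 CPM in A, C and E, was not called. Collagen XII, which sits on the surface of fibres, gave the same contrast. Its copy col12a1.S had 51.4, 93.1 and 4.17 in the very small and 329, 0, 282, 258 and 110.2 in the small oocytes, and col12a1.L had 828, 722 and 654 and 446, 300.3, 391, 362 and 340.3. Only the .S copy was at or near 0 in the outlying oocytes, and only it passed in A and E of big oocytes. Integrin alpha 6 had opposite calls too, as itga6.S was at 102, 67.9 and 54.2 in the very small and 5.96, 4.15, 6.90, 6.35 and 12.4 in the small oocytes (-3.35 ± 0.31, adjusted p = 1.72e-06, edgeR). In sections A and E of big oocytes no pair had opposite calls, and in each of A and E 6 pairs had both copies called.

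**Figure D5:**
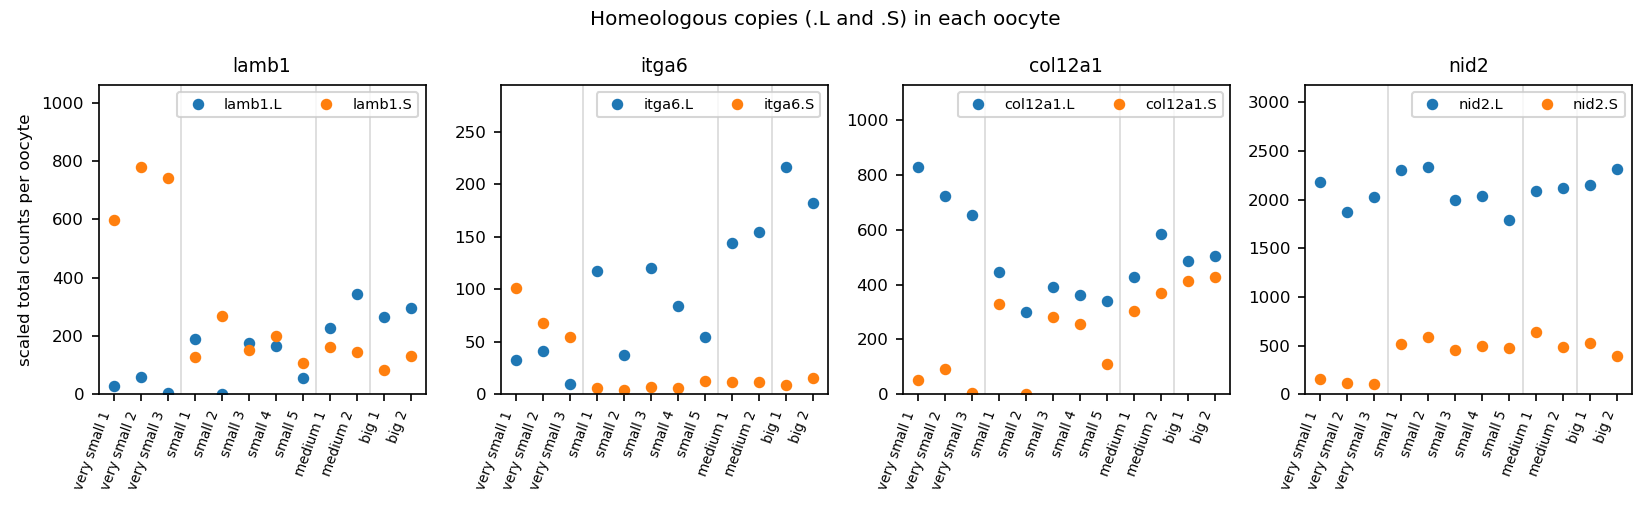
Scaled total counts in each oocyte for the .L and .S copies of 4 genes, each panel with its own y axis from 0; each point is 1 oocyte and grey lines part the size classes. The .S copy of lamb1 lies at 599 to 778 in the very small oocytes, above its .L copy, and the .L copy is at or near 0 in small oocyte 2 and very small oocyte 3.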

How the data were processed

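RNA of 59 sections from 12 oocytes was analysed as deposited counts per transcript, which the authors made by trimming with Trimmomatic, removing ribosomal and mitochondrial reads with SortMeRNA, aligning with STAR 2.5.2b to the *X. laevis* genome and counting with htseq-count. The authors removed transcripts without counts. Depth was 1014060 to 7356435 counts per library, which limits the precision of transcripts near 20 counts. The 7 other files, among them normalized tables, were not used here.

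The members and all gene lists were chosen with earlier results of these data known, and the handling of symbol endings was settled after the transcript names had been seen. Of the 138 members, 101 matched a RefSeq symbol and 1 a synonym, for names only.

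Counts were summed over the sections of an oocyte, scaled with TMM and fitted by size class over 12 oocytes with edgeR 4.0.16 in R 4.3.3 (quasi-likelihood test). Sections were fitted over all 59 libraries with the oocyte as block and section within class, with C as reference. Transcripts with a mean scaled total above 20 in at least 1 class were tested (19941), and calls are at an FDR under 0.1 over all of them. Standard errors are the log2 difference divided by the root of the F statistic. Alternatives were an FDR of 0.05, no filter, DESeq2 1.42.0, section C alone, no block, each class fitted alone and each oocyte left out, and, chosen after seeing the data, small oocyte 2 and very small oocyte 3 left out together and refits of the pole excess in big oocytes. The tests were checked on simulated data. The block follows from the design, as the sections of an oocyte belong together. In the data their deviations from the section means had a median correlation of 0.19 over 116 pairs of sections of 1 oocyte. It was -0.08 over 292 pairs of different sections from different oocytes of a class. Taking deviations from means that these oocytes share pushes the second value below 0, so it is no independent baseline. No pair of replicate libraries agreed within sampling noise.

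Named are the 2 members of each role with the highest mean total, up to 3 called members per role, contrast and direction with the largest difference and a mean total of 50 or more, their homeologs, and members called in no contrast. A transcript that this rule names is not reported here. Figures were drawn with matplotlib 3.10.9.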

Additional observations from a re-analysis of the deposited data

Results flagged for a closer look

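Among the 89 tested transcripts, 2 had a small oocyte far from the other 4 by Dixon's gap test, where chance gives about 5%, or 1 in 20 groups. Both were named after their values were seen. For col17a1.S, a transmembrane collagen of epithelial attachment sites, small oocyte 2 had a scaled total of 192 compared with 4.94 to 16.2 in the others. It was thus the highest of its class for this transcript, in contrast to its near absence of col1a1.L. For lama3.L, the alpha chain of epithelial laminin, small oocyte 3 had 54.1 compared with 33.2 to 36.6 in the others. The low levels in small oocyte 2 were not picked up by this test in any of the 89 transcripts, since the other small oocytes also differed widely from each other.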

How the results depend on the processing

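The counts of totals between small and very small oocytes stayed within 1.5 times under every alternative run, at 29 to 49 higher and 16 to 18 lower with 1 oocyte left out. Between medium and big and small oocytes the 10 higher became 5 at an FDR of 0.05, 0 in section C alone, 21 without small oocyte 2 and very small oocyte 3 and 1 to 12 with 1 oocyte left out. The 1 lower became 0 at an FDR of 0.05, in DESeq2 and in section C alone, 2 without a filter and without those 2 oocytes, and 0 to 2 with 1 oocyte left out. Without the oocyte as block, the counts in A and E were 0 and 2 in small, 0 and 2 in medium and 3 and 3 in big oocytes, so these calls rest on comparing sections within an oocyte. With 1 oocyte left out they were 5 to 30 and 4 to 18 in small, 0 to 6 and 14 to 35 in medium, 0 to 31 and 5 to 29 in big and 0 to 0 and 0 to 1 in very small oocytes. DESeq2 gave 3 in A of small, 1 in A of medium and 1 in E of very small oocytes. Without a filter there were 26 in E of small, 11 in A of medium, 1 in A and 8 in E of very small oocytes, and 2 transcripts whose pole excess rose from small to medium and big. An FDR of 0.05 left 1 in A of medium oocytes, and very small oocytes fitted alone gave 4 in A and 8 in E. The causes were not tested. Of the values for named genes under the alternatives, 13980 kept their side of the threshold, 475 were no longer called and 144 were newly called, and 0 changed sign as a call. Those that kept their side include values called in neither fit, so they do not give the share of calls that held. Medium and big have 2 oocytes each, so 1 oocyte decides many calls.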

Other observations

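Among all transcripts, 36 lay under 10% of the lowest other small oocyte in small oocyte 2, of which 16 were the matrix transcripts described. The other 20 were read after the fact. They included further parts of connective tissue, namely bgn.S (biglycan), eln1.L (elastin), fbn1.L (fibrillin), tnxb.L and tnxb.S (tenascin X) and ogn.S (osteoglycin). They also included hbg1.L, a globin, kdrl.L, a receptor of endothelial cells, podxl.L (podocalyxin), aqp1.S (a water channel) and anxa2.S (an annexin). For hbg1.L the scaled totals were 170.4, 1.38, 144, 121 and 22.8 in small oocytes 1 to 5 and 2.39, 3.48 and 2.78 in the very small oocytes, and they were 161 and 229 in the medium and 517 and 325 in the big oocytes. No test was made of this list, which was picked by its values.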
